A study of Mus musculus with 6 samples.

Results

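Collagen genes were taken as the rows of the expression table whose name is Col, a number, the letter a and a second number, which gave 44 of 51912 genes. RNA had been sequenced from 6 libraries of B16F10, a pigmented mouse melanoma cell line. The 3 A10KO libraries (replicates 1, 13 and 14, as numbered in the labels) carry the genotype ANXA10-/-, a knockout of the gene for the calcium-dependent membrane protein annexin A10, and the 3 WT libraries (replicates 1, 2 and 3) are wild type for it. No treatment, time point or further allele is given in the labels, nor whether the A10KO numbers stand for clones or cultures, so the replicate spread behind each p-value may be no more than technical. Values are TPM, a level scaled by transcript length and by the library total, so levels can be compared between genes.

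Collagens are secreted or membrane proteins whose chains wind around each other into a triple helix. Fibrillar collagens form the fibrils of connective tissue, and network collagens, above all type IV, form the sheets of basement membranes. FACITs (fibril-associated collagens with interrupted triple helices) lie on the surface of fibrils or near basement membranes. The remaining classes include the beaded filaments of type VI, anchoring fibrils, transmembrane collagens and the multiplexins, whose cleaved ends can circulate as fragments such as endostatin. In tumours most fibrillar collagen is known to come from fibroblasts, whereas melanoma cells make part of their own basement membrane collagen.

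The libraries held the markers of the labelled cell. All 8 of 8 melanocyte markers were expressed, with Tyrp1 between 2430 and 3815 TPM in A10KO and between 2871 and 3068 TPM in WT. Of 12 fibroblast markers 3 were expressed (Fbln1, Pdgfrb and Postn), and the list summed to 33.5 to 98.3 TPM in A10KO and 86.1 to 97.2 TPM in WT, most of it Fbln1. Pdgfrb stood at 2.97 ± 1.69 TPM in A10KO and 4.39 ± 1.04 TPM in WT, and Postn at 1.51 ± 0.55 and 1.61 ± 0.67 TPM (SD, n = 3 each). The fibroblast markers Lum, Tcf21 and Twist2 were listed at 0 in every library, Dcn reached at most 0.16 TPM and Pdgfra at most 0.41 TPM. Of 6 endothelial markers 1 was expressed (Egfl7) and Emcn was listed at 0, and of 6 leukocyte markers 1 was expressed (Cd68), with Tyrobp and Cd3e at 0. Fbln1 had 52.5, 28.5 and 94.8 TPM in A10KO replicates 1, 13 and 14 and 80.6, 90.4 and 81.8 TPM in WT, and Cd68 had 1.29, 0.89 and 0.86 TPM in A10KO and 2.42, 4.70 and 4.80 TPM in WT. Their part in the collagen values was not tested. In bulk RNA, fewer cells of a type and less RNA per cell cannot be told apart. Anxa10 itself was listed at 0 TPM in all 6 libraries, A10KO and WT alike, and so gives no check of the labels. Library totals ran from 969834 to 985045 TPM, and between 11889 and 12236 genes reached 1 TPM. Read depth is unknown, since TPM keeps no record of it, and no counting interval or detection limit can be given. A10KO replicate 13 stood apart in mitochondrially encoded transcripts, which took 14.7% of its TPM, against 7.93% and 7.37% in A10KO replicates 1 and 14 and 6.32% to 6.56% in WT.

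Of the 44 collagen genes, 16 were expressed, meaning at least 1 TPM in 3 or more of the 6 libraries. By class these were 5 of 11 fibrillar genes (Col5a1, Col5a3, Col11a2, Col1a1 and Col27a1), 3 of 9 network genes (Col4a1, Col4a2 and Col4a5), 5 of 9 FACIT genes (Col19a1, Col16a1, Col14a1, Col9a3 and Col9a2) and 3 of 15 others (Col15a1, Col18a1 and Col6a3). Within a group, with at least 1 TPM in 2 of its 3 libraries as the threshold, 13 were expressed in A10KO and 14 in WT. By class these were 3 fibrillar, 3 network, 6 FACIT and 1 other gene in A10KO, and 4 fibrillar, 3 network, 4 FACIT and 3 other genes in WT. Both groups expressed the same 10 genes. The 3 that passed in A10KO but not in WT were Col9a1, Col9a2 and Col11a2, and the 4 that passed in WT but not in A10KO were Col1a1, Col27a1, Col6a3 and Col18a1. Those 7 genes were low, with no library above 6.30 TPM, and the difference between the groups in these counts was not tested.

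Another 6 genes reached 1 TPM in 1 or 2 libraries and so were not counted as expressed. These were the fibrillar genes Col2a1 and Col1a2, the FACIT genes Col9a1 and Col20a1, the anchoring fibril gene Col7a1 and the beaded filament gene Col6a1. Just inside the threshold lay Col18a1 and Col27a1, each at 1 TPM or more in the 3 WT libraries alone, and Col6a3 and Col11a2, each in 3 libraries. Just outside it lay Col9a1, Col20a1 and Col7a1, each in 2 libraries. The other 22 genes stayed under 1 TPM everywhere. Of these, 17 had a value above 0 somewhere, the highest being 0.48 TPM for Col26a1 in A10KO replicate 13, and 5 were listed at 0 in every library (Col6a4, Col6a5, Col6a6, Col13a1 and Col25a1). The interstitial collagen gene Col3a1 was among the 22, at no more than 0.09 TPM.

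**Figure D1:**
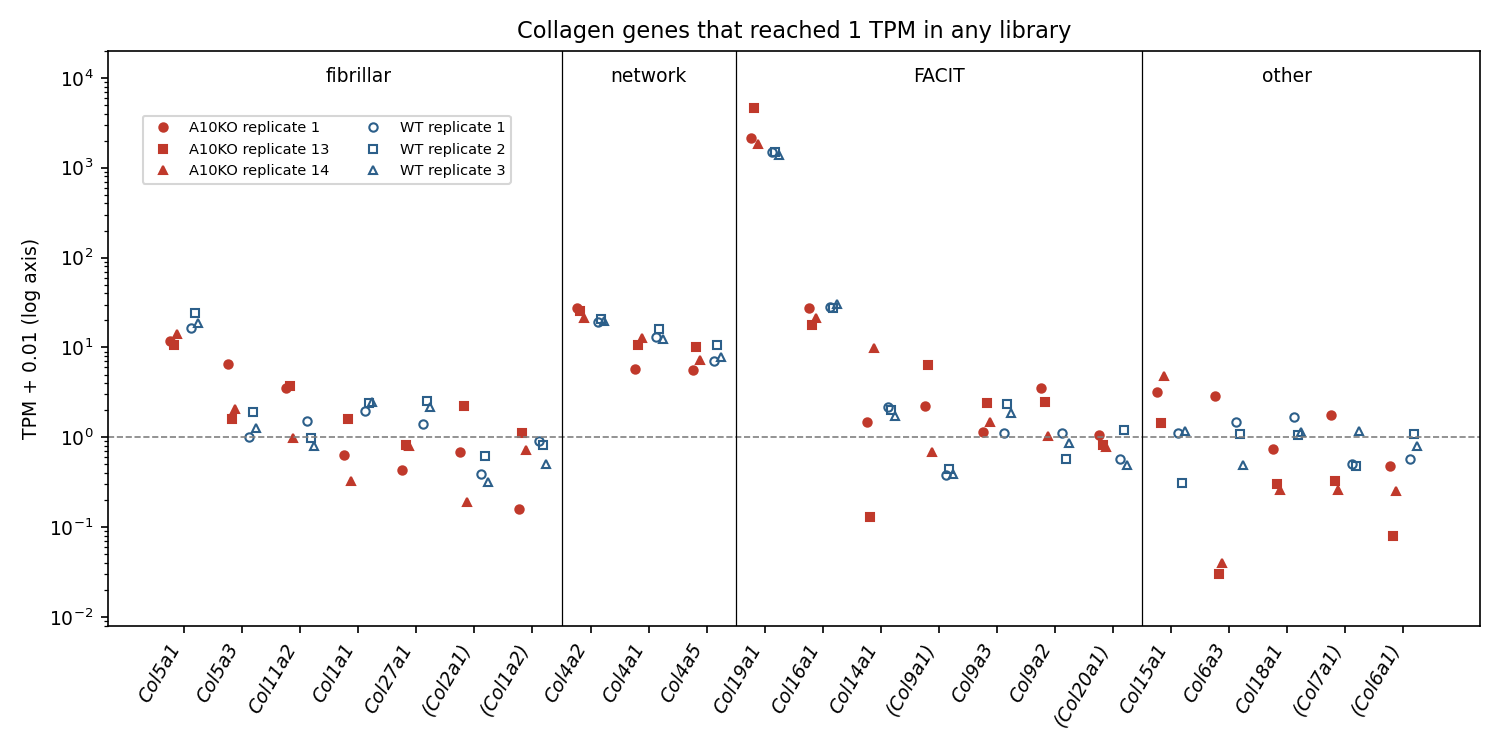
TPM of the 22 collagen genes that reached 1 TPM in any library, on a log axis after adding 0.01, with a point per library, filled red for A10KO and open blue for WT. Genes in brackets were not counted as expressed, and the dashed line marks 1 TPM. Col19a1 lies between 1392 and 4599 TPM and no other collagen gene exceeds 30.6 TPM.

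Col19a1 (ENSMUSG00000026141, GRCm38 chr1:24261890-24587472, minus strand) encodes type XIX collagen, a FACIT found at basement membrane zones and, in mice, made by some neurons and by developing muscle. It was the collagen gene with the highest level in every library. The bases upstream of its annotated start, 215 bases at chr1:24587473-24587687 on the minus strand, are shown because Col19a1 had this highest level. Whether its TPM came from transcripts begun at this start was not tested. Those of Col5a1 (250 bases, chr2:27886175-27886424, plus strand) and Col5a3 (250 bases, chr9:20815068-20815317, minus strand) are shown because their fitted changes had opposite signs within type V. Neither change passed the test of A10KO against WT (limma adjusted p = 0.433 and 0.659), and the groups overlapped for Col5a3. The sequences are those of RefSeq for GRCm38.p6 and leave out annotated exons. Capitals mark motifs found on either strand.
Col19a1: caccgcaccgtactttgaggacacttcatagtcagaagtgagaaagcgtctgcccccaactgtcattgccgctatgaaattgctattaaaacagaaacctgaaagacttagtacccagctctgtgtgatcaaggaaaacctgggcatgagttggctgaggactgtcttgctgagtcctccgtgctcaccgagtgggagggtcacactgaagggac
Col5a1: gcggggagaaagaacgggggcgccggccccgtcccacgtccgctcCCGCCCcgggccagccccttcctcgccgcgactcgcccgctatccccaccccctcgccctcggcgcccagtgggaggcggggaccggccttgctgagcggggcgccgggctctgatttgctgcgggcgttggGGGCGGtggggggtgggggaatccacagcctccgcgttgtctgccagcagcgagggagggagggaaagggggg
Col5a3: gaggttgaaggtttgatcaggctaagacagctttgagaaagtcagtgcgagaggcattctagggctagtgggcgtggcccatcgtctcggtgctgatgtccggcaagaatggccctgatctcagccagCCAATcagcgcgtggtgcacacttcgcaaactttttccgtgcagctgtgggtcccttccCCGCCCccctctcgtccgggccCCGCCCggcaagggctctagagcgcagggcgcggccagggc
The motifs searched on both strands were the TATA box TATAAA, the CCAAT box CCAAT, the GC box GGGCGG, the M-box core CATGTG, which the melanocyte factor MITF can bind, and the E-box CACGTG. Matches do not overlap each other in the windows shown. None occurs in the Col19a1 window. The Col5a1 window has the GC box at 2 places and no other motif, and the Col5a3 window has 1 CCAAT box and the GC box at 2 places. Windows were found for 13 of the 16 expressed collagen genes. Over the 250 bases before the start, the GC box was present for 9 of these 13 genes, against 32.7% of all 32851 promoter windows, and the CCAAT box for 6, against 33.8%. The TATA box was present for 1, against 12.4%, the M-box core for 1, against 12.3%, and the E-box for 0, against 6.0%. A gene counts if any of its windows holds the motif, which applies to Col18a1 with 2 windows, whereas the shares are over windows, and the windows of Col4a1 and Col4a2 share 78 bases.

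Col19a1 had 2138, 4599 and 1835 TPM in A10KO replicates 1, 13 and 14, against 1512, 1488 and 1392 TPM in WT replicates 1, 2 and 3. All 3 A10KO libraries lay above all 3 WT libraries, and A10KO replicate 13 lay far above the other two. The means were 2857 ± 1516 TPM in A10KO and 1464 ± 63.5 TPM in WT (SD, n = 3 each), a ratio of 1.95. On the log2(TPM + 1) scale the change, A10KO minus WT, was 0.84 (SE 0.32, 95% interval 0.08 to 1.60). It did not pass the threshold of 0.05 after adjustment over all 12068 genes tested (limma, Benjamini-Hochberg adjusted p = 0.522, unadjusted p = 0.0338). Without A10KO replicate 13 the change was 0.44 (SE 0.11, limma adjusted p = 0.292). Among expressed genes Col19a1 ranked 63, 16 and 82 by level in A10KO replicates 1, 13 and 14, and 110, 109 and 120 in WT replicates 1, 2 and 3.

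Nearly all collagen RNA by TPM was Col19a1. It held 95.1%, 97.8% and 94.8% of the summed collagen TPM in A10KO replicates 1, 13 and 14, against 93.7%, 92.6% and 92.8% in WT. The groups did not overlap, and the share averaged 95.9 ± 1.68% in A10KO and 93.0 ± 0.58% in WT (exact two-sided permutation p = 0.1, the smallest that 3 against 3 libraries can give). The summed level followed the same gene, at 2961 ± 1514 TPM in A10KO and 1574 ± 64.4 TPM in WT (SD, n = 3 each, exact permutation p = 0.1), a difference of 1388 TPM that was 518 TPM without A10KO replicate 13. Without Col19a1, the other 43 collagen genes summed to 104 ± 4.35 TPM in A10KO and 110 ± 8.91 TPM in WT (exact permutation p = 0.5), so that the difference had the opposite sign and lay within the spread between libraries. Leaving Col19a1 out of the FACITs, fibrillar genes summed to 21.7 ± 2.26 TPM in A10KO and 27.6 ± 5.17 TPM in WT, network genes to 42.4 ± 3.73 and 42.4 ± 4.49 TPM, FACIT genes to 34.1 ± 3.34 and 34.8 ± 1.23 TPM and the other genes to 5.87 ± 3.28 and 4.92 ± 0.52 TPM (SD, n = 3 each). The groups overlapped in every class, with an exact permutation p of 0.2 for the fibrillar, 1.0 for the network, 0.9 for the FACIT and 0.7 for the other genes (4 sums, unadjusted). Collagens other than Col19a1 took 0.0104% to 0.0112% of all TPM in A10KO and 0.0104% to 0.0122% in WT.

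**Figure D2:**
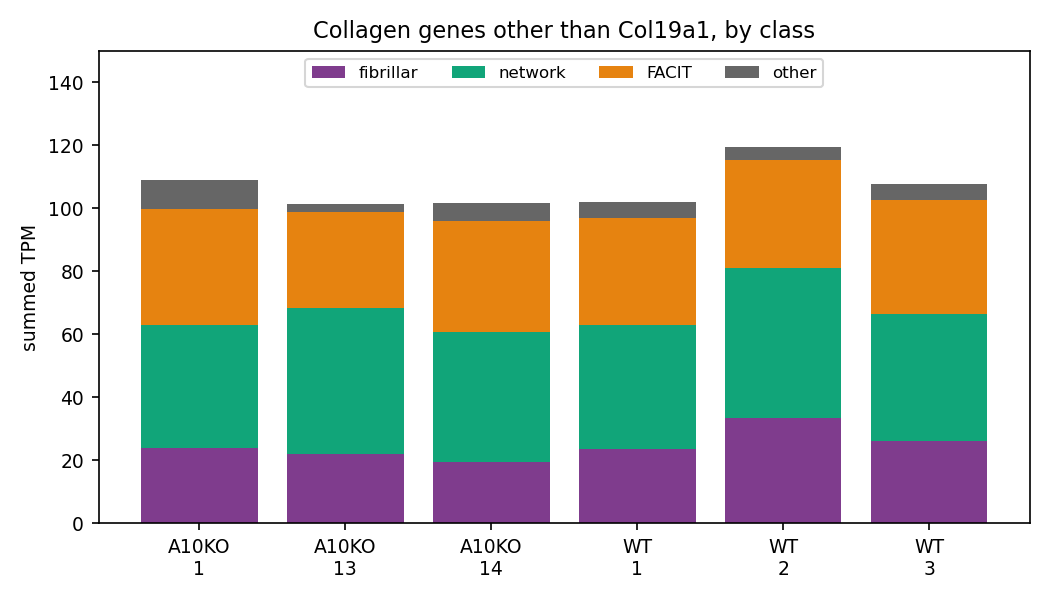
Summed TPM of the collagen genes other than Col19a1 in each library, stacked by class, with A10KO libraries on the left. Totals lie between 101.4 and 109.0 TPM in A10KO and between 102.1 and 119.5 TPM in WT, with network collagens the tallest block in every library.

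Some, but not all, mitochondrially encoded transcripts varied over the libraries in step with Col19a1. mt-Atp8, which encodes a small subunit of the mitochondrial ATP synthase, had 32967, 74021 and 33595 TPM in A10KO replicates 1, 13 and 14, against 27693, 27760 and 26556 TPM in WT. Col19a1 varied 3.30-fold over the 6 libraries, but as a share of mt-Atp8 only 1.24-fold, from 5.24% in WT replicate 3 to 6.48% in A10KO replicate 1. Each A10KO share still lay above each WT share, though A10KO replicate 14 and WT replicate 1 both rounded to 5.46%. The share averaged 6.05 ± 0.53% in A10KO and 5.35 ± 0.11% in WT (SD, n = 3 each, exact two-sided permutation p = 0.1, the smallest possible). Ranked by the SD over the 6 libraries of the log2 ratio to Col19a1, mt-Atp8 was the gene with rank 2 of 11915 (SD 0.127), mt-Nd2 had rank 3 (SD 0.135) and mt-Nd5 rank 5 (SD 0.145), whereas the gene with rank 1 was Alkbh8 (SD 0.0862), which encodes a transfer RNA methyltransferase. Of the other mitochondrial genes ranked, mt-Nd1, mt-Rnr2, mt-Nd6, mt-Nd3, mt-Nd4 and mt-Cytb had ranks from 22 to 173, while mt-Rnr1 had rank 562, mt-Co1 rank 1531, mt-Tp rank 3633 and mt-Co2 rank 3907. This ranking was made after the values were seen, and with 6 libraries of which 1 stands apart it is a description. On the minus strand, 24063 bp beyond the start of Col19a1, the annotation places a block of 7 pseudogenes of mitochondrial genes (Gm28439, Gm10222, Gm28438, Gm28437, Gm10925, Gm28661 and Gm29216). Gm28439 was listed at 0 and the other 6 had between 1826 and 26630 TPM. Their likeness to Col19a1 ran from rank 268 for Gm28438, with 4415, 5703 and 3068 TPM in A10KO replicates 1, 13 and 14 and 2869, 1826 and 2800 TPM in WT, to rank 10301 for Gm29216, with 7186, 3579 and 4819 TPM in A10KO and 6691, 6003 and 7028 TPM in WT. Gm28438 was thus highest in A10KO replicate 13 and Gm29216 lowest there, and the rank was 842 for Gm10222, 2323 for Gm10925, 2415 for Gm28661 and 6084 for Gm28437. Of the mitochondrial genes, mt-Atp6 was listed at 0 in every library and mt-Co3 reached at most 0.29 TPM. The annotated Col19a1 transcripts, in GENCODE M21, shared 0 of their 6885 stretches of 31 bases with a transcript of any other gene, mitochondrial genes and these pseudogenes included. The annotation the authors counted with is not given in the sources used here, and the part of mitochondrial reads in the Col19a1 value was not tested. With mitochondrial transcripts removed from the totals, the Col19a1 change was 0.90 (limma adjusted p = 0.583).

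**Figure D3:**
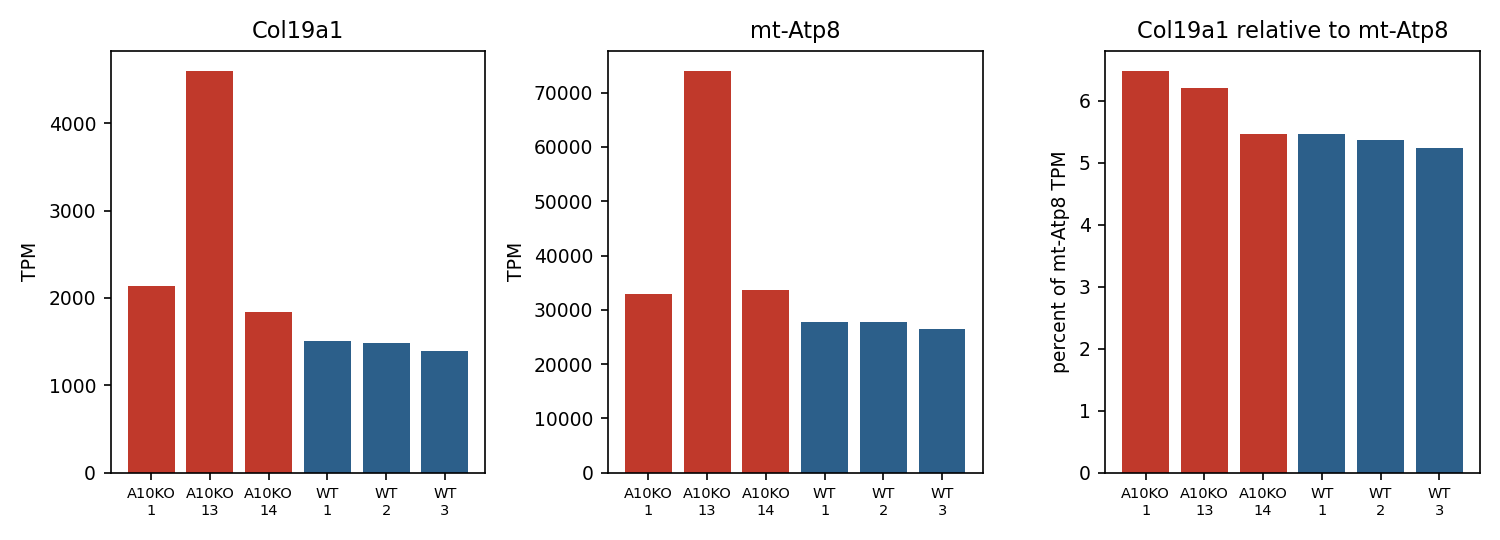
Col19a1 TPM, mt-Atp8 TPM and Col19a1 as a percent of mt-Atp8 in each library, with A10KO in red on the left and WT in blue on the right. A10KO replicate 13 is highest in both genes, at 4599 and 74021 TPM. The ratio lies between 5.46% and 6.48% in A10KO and between 5.24% and 5.46% in WT, without overlap.

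The protein-coding neighbours of Col19a1 stood at far lower levels. Col9a1 (chr1:24177610-24252684, plus strand), whose end faces that of Col19a1 across 9206 bp, encodes a chain of type IX collagen. Col9a1 had 2.20, 6.30 and 0.67 TPM in A10KO replicates 1, 13 and 14, against 0.37, 0.43 and 0.38 TPM in WT. The groups did not overlap and the A10KO libraries had the same order as for Col19a1, but Col9a1 missed the expression threshold and had no value in the filtered fit. With no filter on low values its log2 change was 1.28 (SE 0.53, limma adjusted p = 0.747). Further out, Fam135a stood at 20.9 ± 11.7 TPM in A10KO and 19.2 ± 4.31 TPM in WT, Sdhaf4 at 41.9 ± 7.98 and 48.3 ± 4.11 TPM, and Lmbrd1 at 32.9 ± 7.53 and 34.0 ± 3.33 TPM (SD, n = 3 each). None of these 3 passed the test (limma adjusted p = 0.996, 0.748 and 0.938). Adgrb3 was listed at 0 in every library and 4931408C20Rik reached at most 0.01 TPM.

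No collagen gene passed the test between A10KO and WT. Of the 16 tested, 0 were called higher and 0 lower by limma at an adjusted p under 0.05, where 5 of all 12068 genes, or 0.0414%, were called (0.0166% higher and 0.0249% lower). The smallest adjusted p was 0.420, for Col27a1. At an unadjusted p under 0.05 there were 7 (Col19a1, Col15a1 and Col9a2 above WT, and Col27a1, Col5a1, Col1a1 and Col18a1 below), against 8.83% of all genes tested (2.56% higher and 6.27% lower). Leaving out single libraries gave 0 to 4 above and 2 to 5 below, where 158 to 495 of all 12068 genes were higher and 385 to 1112 lower. The 0 above came without WT replicate 2, with 2 below, where 188 of all genes were higher and 385 lower. The A10KO libraries all lay above the WT libraries for 3 of the 16 (Col19a1, Col4a2 and Col15a1), against 5.61% of all genes, and all below for 5 (Col16a1, Col5a1, Col1a1, Col27a1 and Col18a1), against 11.5%. These counts are a description, since Col27a1 and Col18a1 met the expression threshold through their WT libraries alone and so had to differ. The median log2 change was -0.11 over the 16 collagen genes and -0.04 over all genes tested, with 7 collagen genes above 0 and 9 below. By class the median was -0.62 for the fibrillar, -0.16 for the network, 0.07 for the FACIT and -0.30 for the other genes. These medians and signs are a description too. Col27a1, among the fibrillar genes, and Col18a1, among the other genes, had to lie below 0 by the way they met the threshold. A lower level of either class in A10KO cannot be read from them.

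**Figure D4:**
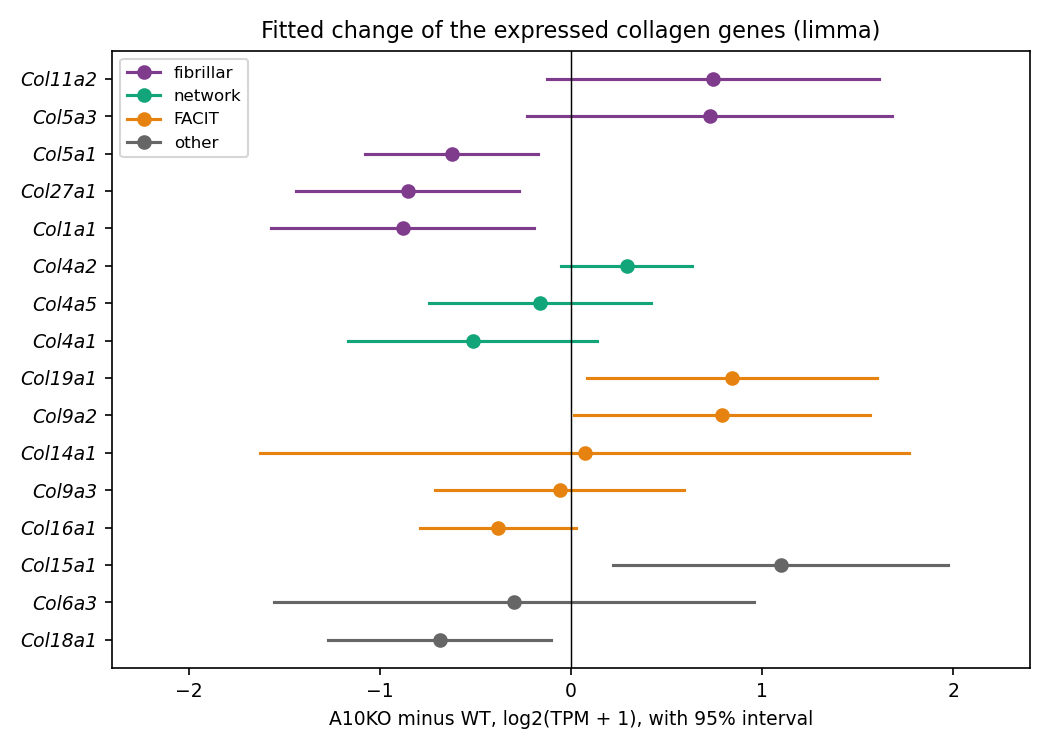
Fitted change, A10KO minus WT on the log2(TPM + 1) scale, of the 16 expressed collagen genes with its 95% interval from limma, coloured by class. Points run from -0.88 for Col1a1 to 1.10 for Col15a1, and intervals that leave out 0 are not adjusted for the number of genes.

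Among fibrillar genes Col5a1 (ENSMUSG00000026837, chr2:27886425-28039514) had the highest level. It encodes a chain of type V collagen, which starts and limits the growth of type I fibrils. Col5a1 had 11.8, 10.8 and 14.2 TPM in A10KO replicates 1, 13 and 14, against 16.3, 24.1 and 18.5 TPM in WT. Every A10KO value lay under every WT value, with means of 12.3 ± 1.78 TPM in A10KO and 19.6 ± 4.04 TPM in WT (SD, n = 3 each), a log2 change of -0.62 (SE 0.19, limma adjusted p = 0.433). Of Col5a1's transcripts, 2.18% of the 31-base stretches occur in other genes, among them Gm13372 and 2810430I11Rik on the opposite strand. Col4a2 and Col15a1 also share 43 and 14 exonic bases with the antisense genes Gm15419 and Gm12426. The strand setting of the counting is not given in the sources used here, so reads of such overlaps cannot be told apart.

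Its partner chains showed no such order. Col5a3, the third type V chain, had 6.46, 1.61 and 2.07 TPM in A10KO and 1.0, 1.91 and 1.27 TPM in WT, so that A10KO replicate 1 was high and the groups overlapped (log2 change 0.73, SE 0.41, limma adjusted p = 0.659). Without A10KO replicate 1 that change was 0.26. Col5a2, which pairs with Col5a1 in the common form of type V, reached at most 0.03 TPM. Type I collagen was near the threshold. Col1a1 (chr11:94936224-94953042) had 0.62, 1.60 and 0.32 TPM in A10KO and 1.93, 2.42 and 2.46 TPM in WT, without overlap (log2 change -0.88, SE 0.29, limma adjusted p = 0.471). Its partner Col1a2 had 0.15, 1.12 and 0.72 TPM in A10KO and 0.91, 0.81 and 0.50 TPM in WT, so that the groups overlapped, and with no filter on low values its log2 change was -0.10 (SE 0.25, limma adjusted p = 0.907).

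Col27a1, Col11a2 and Col2a1 are best known from cartilage. Col27a1 (chr4:63214004-63334991) had 0.42, 0.81 and 0.79 TPM in A10KO and 1.39, 2.56 and 2.19 TPM in WT, without overlap (log2 change -0.85, SE 0.25), having met the threshold through the WT libraries alone. Col11a2, a chain of type XI collagen, had 3.52, 3.73 and 0.97 TPM in A10KO and 1.53, 0.97 and 0.80 TPM in WT, so that A10KO replicates 1 and 13 were high and replicate 14 lay within the WT range (log2 change 0.74, limma adjusted p = 0.616). Col2a1, the main cartilage collagen, had 0.68, 2.21 and 0.18 TPM in A10KO and 0.38, 0.61 and 0.31 TPM in WT. Col3a1, Col11a1 and Col24a1 reached at most 0.09 TPM.

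The expressed network genes were all of type IV, the collagen of basement membranes. Col4a1 (ENSMUSG00000031502, chr8:11198423-11312826, minus strand) and Col4a2 (ENSMUSG00000031503, chr8:11312805-11449287, plus strand) lie head to head, share 22 exonic bases on opposite strands, and encode the chains of the most widespread type IV trimer. Col4a1 had 5.77, 10.6 and 12.9 TPM in A10KO replicates 1, 13 and 14, against 12.95, 15.9 and 12.5 TPM in WT, and the groups overlapped (9.75 ± 3.63 in A10KO and 13.8 ± 1.85 TPM in WT, log2 change -0.51, SE 0.28, limma adjusted p = 0.650). Col4a2 had 27.5, 25.5 and 21.2 TPM in A10KO, against 19.3, 20.7 and 19.8 TPM in WT, and the groups did not overlap (24.7 ± 3.21 in A10KO and 19.9 ± 0.69 TPM in WT, log2 change 0.29, SE 0.15, limma adjusted p = 0.624). Without A10KO replicate 1 the Col4a1 change was -0.21.

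The balance of the pair differed between the libraries. The ratio of Col4a1 to Col4a2 TPM was 0.21, 0.42 and 0.61 in A10KO replicates 1, 13 and 14, against 0.67, 0.77 and 0.63 in WT. Each A10KO ratio lay under each WT ratio, though A10KO replicate 14 was close to WT replicate 3. The mean log2 ratio was -1.41 ± 0.78 in A10KO and -0.54 ± 0.15 in WT, a difference of -0.87 (exact two-sided permutation p = 0.1, the smallest possible), and without A10KO replicate 1 the difference was -0.45. Ratios were also considered for Col1a1 to Col1a2, Col5a1 to Col5a2, Col6a1 to Col6a2 and Col11a1 to Col11a2, but not computed, since at least 1 chain of each was not expressed. Col4a5 (chrX:141475385-141689234), the chain mutated in X-linked Alport syndrome in humans, had 5.63, 10 and 7.27 TPM in A10KO and 7.10, 10.8 and 7.83 TPM in WT, so that the groups overlapped (log2 change -0.16, SE 0.25, limma adjusted p = 0.869). Col4a3, Col4a4 and Col4a6, with which Col4a5 assembles, reached at most 0.11 TPM, and the short-chain network genes Col8a1, Col8a2 and Col10a1 at most 0.20 TPM.

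**Figure D5:**
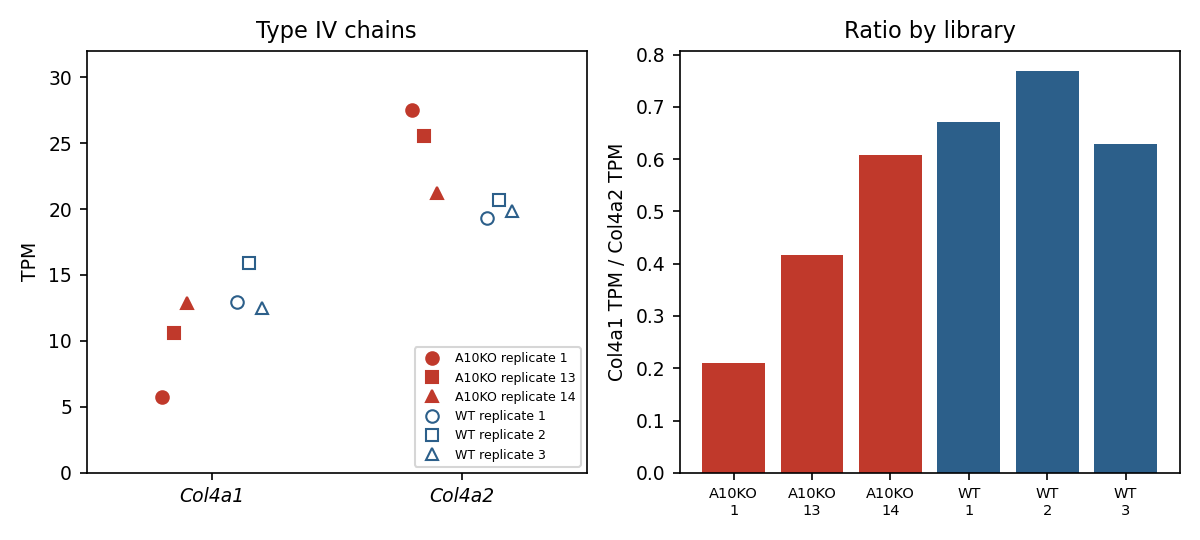
TPM of the type IV genes Col4a1 and Col4a2 and the ratio of Col4a1 to Col4a2 in each library, with A10KO in red on the left and WT in blue on the right. The ratio lies between 0.21 and 0.61 in A10KO and between 0.63 and 0.77 in WT.

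Col16a1 (ENSMUSG00000040690, chr4:130047840-130099283) was the FACIT gene with the next highest level after Col19a1. Type XVI collagen is found in skin beside fibrillin microfibrils. Col16a1 had 27.3, 17.97 and 21.3 TPM in A10KO replicates 1, 13 and 14, against 28.4, 27.4 and 30.6 TPM in WT. The groups did not overlap, but A10KO replicate 1 lay close to WT replicate 2 (22.2 ± 4.72 in A10KO and 28.8 ± 1.65 TPM in WT, log2 change -0.38, SE 0.18, limma adjusted p = 0.572).

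The remaining FACIT genes were low. Col14a1, whose product binds the surface of type I fibrils, had 1.46, 0.12 and 9.81 TPM in A10KO, against 2.15, 1.98 and 1.73 TPM in WT. A10KO replicates 1 and 13 lay below every WT library and replicate 14 above every WT library. The log2 change of 0.07 (SE 0.73) was -0.83 without A10KO replicate 14. Type IX collagen, a trimer that coats cartilage fibrils, has its chains encoded by Col9a1, Col9a2 and Col9a3. Col9a2 had 3.54, 2.44 and 1.02 TPM in A10KO and 1.10, 0.56 and 0.86 TPM in WT, so that A10KO replicate 14 lay within the WT range (log2 change 0.79, SE 0.33, limma adjusted p = 0.564). Col9a3 had 1.13, 2.38 and 1.46 TPM in A10KO and 1.12, 2.33 and 1.84 TPM in WT (log2 change -0.06, SE 0.28), and shares 234 exonic bases with Tcfl5 on the opposite strand. Of the type IX chains, A10KO replicates 1 and 13 thus had at least 1 TPM of each, and no WT library did. Col20a1 reached at most 1.19 TPM, Col12a1 0.35 TPM and Col22a1 0.01 TPM.

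Both multiplexins, the collagens that carry an endostatin domain at their end, were expressed, and neither passed the test. Col15a1 (chr4:47208161-47313167) had 3.15, 1.42 and 4.80 TPM in A10KO replicates 1, 13 and 14, against 1.10, 0.30 and 1.18 TPM in WT. The groups did not overlap, and at 1.10 (SE 0.37) its log2 change was the highest of the 16, with a limma adjusted p of 0.480. Fitted on log2(TPM + 0.1), the change was 1.77 for Col15a1, 1.26 for Col9a2, -0.09 for Col9a3, -1.49 for Col18a1, -1.56 for Col1a1, -1.48 for Col27a1 and -1.51 for Col6a3, each over 1.5 times its size on the log2(TPM + 1) scale, and none passed. Col18a1 (chr10:77052178-77166548), which encodes the source of endostatin, had 0.74, 0.29 and 0.25 TPM in A10KO, against 1.67, 1.06 and 1.13 TPM in WT, also without overlap (log2 change -0.69, SE 0.25, limma adjusted p = 0.502). Having met the threshold through its WT libraries alone, Col18a1 had to be lower in A10KO, and its direction is not set against that of Col15a1. Of the type VI genes only Col6a3 was expressed. Col6a3 had 2.90, 0.02 and 0.03 TPM in A10KO and 1.49, 1.07 and 0.48 TPM in WT, so that only A10KO replicate 1 was above WT (log2 change -0.30, SE 0.54). Col6a1 had 0.47, 0.07 and 0.24 TPM in A10KO and 0.56, 1.08 and 0.79 TPM in WT, and Col6a2 reached at most 0.01 TPM. Col7a1, the anchoring fibril collagen of skin, had 1.76, 0.32 and 0.25 TPM in A10KO and 0.50, 0.47 and 1.16 TPM in WT.

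Genes that fold and modify collagen chains were well expressed in both groups. Of 24 listed genes 23 were in the table and 20 were tested, and 0 rose or fell by limma over all genes (against 0.0414% of all genes called), with 0 higher and 1 lower at an unadjusted p under 0.05 (against 2.56% and 6.27% of all genes) and with a median log2 change of -0.04. Serpinh1, the collagen chaperone HSP47, stood at 614 ± 132 TPM in A10KO and 672 ± 72.6 TPM in WT, Sparc, a collagen-binding matrix protein gene, at 393 ± 38.4 and 440 ± 20.9 TPM, and P4hb, the shared subunit of prolyl hydroxylase, at 400 ± 19.01 and 412 ± 26.1 TPM. The largest change in the list was that of Fkbp10, a prolyl isomerase needed for collagen crosslinks, with 0.72, 1.40 and 4.55 TPM in A10KO and 4.82, 4.74 and 5.01 TPM in WT (log2 change -1.04, SE 0.41, limma adjusted p = 0.530). Fkbp10 did not overlap between the groups, but A10KO replicate 14 was close to WT. P3h3, a prolyl hydroxylase family gene, had 53.7, 21.4 and 41.8 TPM in A10KO and 49.4, 52.5 and 53.9 TPM in WT (log2 change -0.50).

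Processing and crosslinking genes gave the same count of calls. Of 16 listed, 8 were tested, 0 passed in either direction (against 0.0414% of all genes), 0 had an unadjusted p under 0.05 (against 8.83%), and the median log2 change was -0.20. Pcolce, which enhances cleavage of the procollagen end, stood at 240 ± 36.3 TPM in A10KO and 248 ± 28.8 TPM in WT, Mmp14, a membrane-bound collagenase gene, at 133 ± 22.0 and 144 ± 10.5 TPM, and Loxl3 at 33.2 ± 3.58 and 29.3 ± 2.77 TPM. The crosslinking enzyme gene Loxl2 had 4.85, 11.7 and 3.67 TPM in A10KO and 8.36, 23.7 and 12.1 TPM in WT, overlapping (log2 change -1.04, SE 0.46, limma adjusted p = 0.568). Adamts3, which trims procollagen at its start, had 1.47, 0.07 and 3.69 TPM in A10KO and 2.93, 2.79 and 3.26 TPM in WT (log2 change -0.79). Lox, the founding crosslinking enzyme, reached at most 0.01 TPM.

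Receptors and basement membrane partners were also without a call. Of 11 genes listed as receptors 5 were tested, with 0 members past the threshold (against 0.0414% of all genes). An unadjusted p under 0.05 was reached by 0 (against 8.83%). The median log2 change was 0.07, the value of Osbpl8, which encodes an oxysterol-binding protein and is not a collagen receptor. The tested receptors proper were Itgb1, Itga1, Ddr1 and Ddr2, with log2 changes of -0.0064, 0.065, 0.27 and 0.25. Itgb1, the beta chain of the collagen-binding integrins, stood at 147 ± 13.7 TPM in A10KO and 149 ± 27.1 TPM in WT. Ddr1, a tyrosine kinase that binds collagen, had 80.6, 75.4 and 61.5 TPM in A10KO and 60.6, 59.0 and 58.8 TPM in WT, without overlap (log2 change 0.27, SE 0.13, limma adjusted p = 0.608), and its relative Ddr2 stood at 19.8 ± 7.48 and 16.1 ± 4.09 TPM. Of 16 partner genes 7 were tested, with a median log2 change of -0.24 and 0 members past the threshold (against 0.0414%). At an unadjusted p under 0.05, 0 were higher and 2 lower (Agrn and Lamb2), against 2.56% and 6.27% of all genes. Agrn, the heparan sulfate proteoglycan agrin, had 37.6, 25.5 and 53.0 TPM in A10KO and 66.1, 85.1 and 70.9 TPM in WT, without overlap (log2 change -0.97, SE 0.25, limma adjusted p = 0.339). The laminin chain gene Lamb2 had 25.8, 34.0 and 27.7 TPM in A10KO and 37.1, 47.4 and 34.7 TPM in WT, also without overlap (log2 change -0.43, limma adjusted p = 0.543). Hspg2, which encodes perlecan, stood at 85.2 ± 10.5 TPM in A10KO and 101 ± 10.96 TPM in WT, and the laminin chain gene Lamc1 at 58.4 ± 13.6 and 62.4 ± 4.82 TPM.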

How the data were processed

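RNA of B16F10 cells was isolated with Trizol, with a DNase I step, per the labels' protocols. The submitters' processing notes name fastp, HISAT and RSEM and the build GRCm38.p5, with no versions or settings. The deposited values are TPM made by the authors, as read from their decimals and from column totals between 969834 and 985045, although the table is presented as raw counts. Each of the 6 single-library tables matched its column of that table.

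The 12068 genes that reached 1 TPM in 3 or more libraries were tested with limma 3.58.1 in R 4.3.3, with a mean-variance trend, on log2(TPM + 1), which understates the change of low genes. P-values were adjusted over all tested genes by the Benjamini-Hochberg method, with a threshold of 0.05. Library sums, shares and ratios were compared by exact permutation tests. Coordinates, exons and transcripts came from GENCODE M21 on GRCm38, matched by identifier for 51633 genes, and promoters from RefSeq. The fit was tested on simulated data. The collagen classes are textbook assignments. The genes named are every expressed collagen gene, the 3 highest and the 2 most changed members of each related list, and the 3 protein-coding neighbours of Col19a1 on either side. Members, lists and these rules were chosen with earlier results of these data known, and the low collagen genes, mt-Atp8, the pseudogenes, Alkbh8 and further markers were named after their values were seen. The alternatives were another pseudocount, other filters, scalings, weights and leaving out each library, with the tested genes kept.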

Additional observations from a re-analysis of the deposited data

How the results depend on the processing

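Under each of the 16 alternatives of the fit, 0 collagen genes were called higher and 0 lower, and the smallest adjusted p of any was 0.173. Since only 2 to 25 of all genes were called in these alternatives, a count of 0 says little about the collagen genes. Of the 16 tested collagen genes, 12 kept their sign in every alternative in which they were tested. These include Col27a1 and Col18a1, which met the threshold through their WT libraries alone, so their kept sign says nothing about stability. The sign changed for Col14a1 (-0.44 with a pseudocount of 0.1, and -0.83 to 0.81 without single libraries, the lowest without A10KO replicate 14), Col9a3 (0.0083 under quantile normalization, and -0.247 to 0.0872 without single libraries, above 0 without A10KO replicate 1 or WT replicate 2), Col4a5 (-0.350 to 0.0149 without single libraries, above 0 without A10KO replicate 1) and Col6a3 (-0.942 to 0.0259 without single libraries, above 0 without A10KO replicate 13 or 14). The cause was not tested. The count of all genes called was 5, with 3 under quantile normalization, 25 with array quality weights and 2 to 8 without single libraries. The collagen median of -0.11 was -0.29 with a pseudocount of 0.1, 0.0003 with no filter (39 genes), -0.27 with a 5 TPM filter (6 genes), -0.0275 under quantile normalization and -0.184 to 0.0505 without single libraries, above 0 without A10KO replicate 1 or WT replicate 2, while the median of all genes ran from -0.0753 to 0.0205. At thresholds of 2 or 5 TPM, 6 collagen genes were expressed (1 fibrillar, 3 network, 2 FACIT and 0 other), and at 0.5 TPM 22 were, with 5 in the other class. The difference in summed collagen TPM ran from 518 to 1900 without single libraries and was -5.69 without Col19a1, an alternative chosen after seeing the data. The share held by Col19a1 differed by 1.93 to 3.47 percentage points, and the log2 ratio of Col4a1 to Col4a2 by -1.22 to -0.45. No paired analysis was possible because the groups share only 1 replicate number. Depth is unknown, so the limits of the genes near 1 TPM cannot be stated.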
